A study of Mus musculus with 18 samples.

Results

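The stretch of chromosome 6 that holds Clec2d and Cd69 was covered by 13 open chromatin regions, of 33115 found over the genome in naive CD4 T cells. Peaks of 18 ATAC-seq libraries were merged where they overlapped by at least 1 bp, and a region was taken when the protein-coding gene end nearest to its centre, within 100 kb, was that of Cd69 or Clec2d. This gave 10 regions for Cd69 and 3 for Clec2d. The locus was chosen by measured values, since the presence of its peaks separated spleen from lymph nodes, so that contrast is described below without a test. The regions are named R1 to R13 from left to right.

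Cd69 encodes a C-type lectin-like receptor that T cells bring to their surface soon after antigen receptor signals. CD69 binds the sphingosine-1-phosphate receptor S1PR1, takes it off the surface and so holds cells in lymphoid tissue. Clec2d encodes Clr-b, a related lectin on many blood cells, which is the ligand of the inhibitory natural killer cell receptor NKR-P1B. Both genes lie in the natural killer gene complex. ATAC-seq marks open DNA by where the Tn5 transposase can insert adapters, so a peak reports accessibility and not transcription.

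The libraries came from untreated C57BL6/J mice whose genotype label is WT. Naive CD4+ T cells, freshly prepared, were separated by Nr4a1-dsGFP, a short-lived green fluorescent reporter of the antigen receptor responsive gene Nr4a1, into low and high fractions. Each fraction was taken from spleen, mesenteric lymph node and axillary lymph node, with 3 libraries in each of the 6 groups and 500000 cells per library. The labels number biological replicates without saying whether animals were pooled or shared, and give no age. All p-values here thus speak of the spread among these libraries, part of which may be technical. The study asks how tonic receptor stimulation and the tissue relate to the chromatin of these cells.

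A pair of technical values differed between organs and touch every organ comparison here. Read depth, recovered from the peak values as reads per 10 kb of background, was 9.84 to 14.4 in spleen, 11.7 to 16.6 in mesenteric and 8.48 to 10.2 in axillary libraries. The narrowest peak of a library, taken here as the fragment length used by the peak caller, was 161 to 176 bp in 12 libraries, namely 5 spleen, all 6 mesenteric and 1 axillary, and 216 to 236 bp in the other 6, namely 5 axillary libraries and spleen low replicate 3. Differences between axillary nodes and the other organs and differences in this length therefore cannot be told apart, whereas spleen and mesenteric libraries can be compared at like lengths. Of the naive CD4 T cell markers, all 12 genes had a region, with 14 to 44 of their 57 regions holding a peak in a library. Among the B cell markers, Cd79a, Cd79b, Ms4a1 and Blk had no region. The 5 regions of B cell markers held 1 to 3 peaks in spleen, 1 to 2 in mesenteric and 0 to 1 in axillary libraries. Their summed relative level was 0.476 to 1.45 in spleen, 0.4 to 0.967 in mesenteric and 0 to 0.421 in axillary libraries. Myeloid markers had 10 regions, with 0 to 3 peaks in spleen, 0 to 6 in mesenteric and 0 in axillary libraries, and Csf1r, Lyz2 and Cd68 had none. Other lists held peaks in all 3 organs. In the same order, memory or effector T cell markers (19 regions) had 6 to 13, 8 to 15 and 4 to 10. Regulatory T cell markers (24 regions) had 7 to 9, 7 to 13 and 4 to 8. Natural killer cell markers (11 regions) had 3 to 5, 3 to 8 and 3 to 7. Dendritic markers (7 regions) had 2 to 4, 2 to 5 and 2 to 5. CD8 T cell markers (9 regions) had 2 to 4, 4 to 7 and 1 to 4. The part of other cells in the results below was not tested.

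The DNA before the transcription starts of Clec2d and 2310001H17Rik is shown because R1 and R7 lie across these starts. No sequence of Cd69 is shown. The sequences are the 250 bases upstream of each start in the RefSeq promoter table (GRCm38.p6), read 5′ to 3′ on the strand of the gene, and capitals mark E-box letters (CANNTG).
Clec2d: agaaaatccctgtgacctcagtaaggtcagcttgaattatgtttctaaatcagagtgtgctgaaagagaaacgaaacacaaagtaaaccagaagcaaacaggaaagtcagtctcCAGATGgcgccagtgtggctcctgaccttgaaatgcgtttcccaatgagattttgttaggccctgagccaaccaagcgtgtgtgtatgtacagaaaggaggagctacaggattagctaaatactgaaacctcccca
2310001H17Rik outer start: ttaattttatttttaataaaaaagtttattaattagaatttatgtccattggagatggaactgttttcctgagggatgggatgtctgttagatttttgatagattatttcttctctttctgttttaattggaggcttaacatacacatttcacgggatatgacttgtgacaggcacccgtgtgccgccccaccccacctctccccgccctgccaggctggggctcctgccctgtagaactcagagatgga
2310001H17Rik inner start: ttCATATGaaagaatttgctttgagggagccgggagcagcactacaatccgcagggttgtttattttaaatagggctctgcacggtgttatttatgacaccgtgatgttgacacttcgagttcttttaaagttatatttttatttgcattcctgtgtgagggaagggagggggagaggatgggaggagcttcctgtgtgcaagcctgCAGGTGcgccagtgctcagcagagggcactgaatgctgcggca
The Clec2d window is chr6:129180365-129180614 on the plus strand, inside R1. The long non-coding RNA 2310001H17Rik has a pair of annotated starts on the minus strand. The window of the outer start is chr6:129238483-129238732 and that of the inner start chr6:129238046-129238295. R7 ends at chr6:129238578, so the inner window lies inside it and most of the outer window lies outside. The search covered both strands for 5 motifs. These were AP-1 (TGANTCA), the NFAT core (GGAAA), Runx (TGTGGT), the E-box and the TATA box (TATAAA). The Clec2d window held 1 E-box and 2 NFAT cores, and the inner window 2 E-boxes. The outer window held 1 NFAT core, at -186 to -182 from the start and outside R7. No AP-1, Runx or TATA letters were found in these 3 windows. Over 32851 promoter windows of the same length, 66.2% held an E-box, 55.6% an NFAT core, 14.0% a Runx, 12.4% a TATA box and 6.75% an AP-1 match. These matches are letters only.

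The 13 regions spanned 104713 bp, from just before the start of Clec2d to beyond the right end of Cd69. Strand was not used for Cd69, so its right end is a position here and may be its transcription start. By this rule Cd69 had many regions: of 12858 genes with a region, 1.91% had at least as many as its 10, and the median gene had 2. The rule gives Cd69 the regions inside the non-coding gene 2310001H17Rik (R5, R6 and R7). Genes with as wide a gap to the next gene were not compared. For Clec2d, 28.8% of genes had at least its 3 regions. Of the 10 Cd69 regions, R10 and R11 touched the gene itself (chr6:129267324-129275375), R12 and R13 lay past its right end, and the other 6 lay in the 80788 bp between the genes. Just outside the rule stood chr6:129095125-129095532 on the left, nearest to Clec2e and 85286 bp from Clec2d, with a peak in 7 libraries, and chr6:129304091-129304639 on the right, nearest to Clec2m and 28990 bp from Cd69, with a peak in 11. The outermost members, R1 and R13, lay 4 bp and 9282 bp from their gene ends and had a peak in all 18 libraries.

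**Figure D1:**
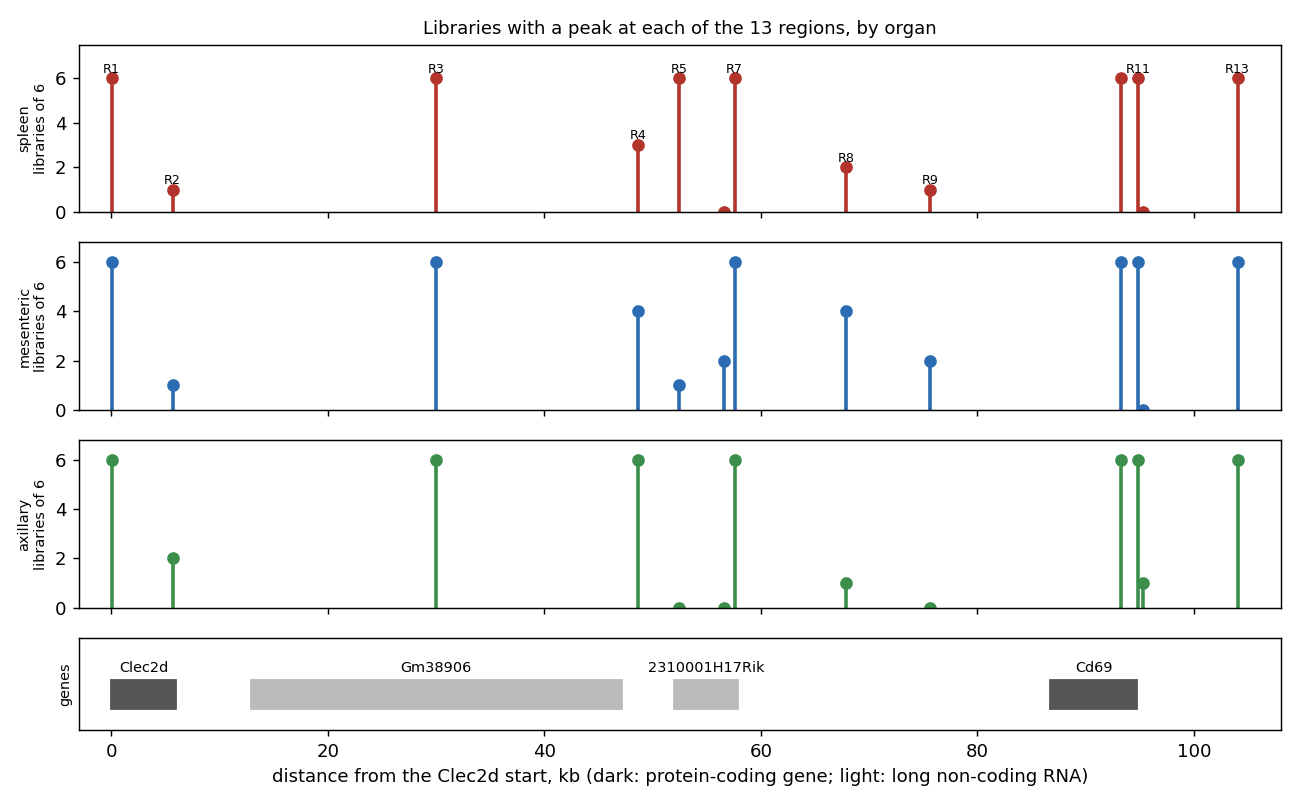
Number of libraries with a peak (of 6 per organ, vertical axis) at each of the 13 regions, by distance from the Clec2d start in kb, with genes drawn below to scale. R5 has a peak in 6 spleen, 1 mesenteric and 0 axillary libraries, while R1, R3, R7, R10, R11 and R13 have one in all 18.

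There were 6 regions in all 18 libraries, R1, R3, R7, R10, R11 and R13, against 26.4% of all regions of the genome. The other 7 had a peak in 1 to 13 libraries. In what follows, a relative level is the number of reads at a peak's summit divided by the library's median over the 8756 regions present everywhere, so that 1 is the median shared region, and the fold enrichment is the authors' deposited ratio of a summit to its local background.

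The strongest peaks of the locus stood at its outer ends. R1 (chr6:129180331-129180908) covers the start of Clec2d, and its summits had their median 5 bp past that start. Its deposited fold enrichment was 14.1 to 17.8, which placed it at a median rank percentile of 97.3 within the peak lists. R13 (chr6:129284271-129285043) lies 9.28 kb past the right end of Cd69, outside any annotated gene. Its fold enrichment was 12 to 18 and its median rank percentile 98.1. R13 also had the tightest summits of the 6 shared regions: 16 of 18 fell within 20 bp of their median, against 2 of 18 in R11, 5 of 18 in R1, 8 of 18 in R3, 9 of 18 in R10 and 7 of 19 peaks in R7. Summit reads were fewer at R11 (chr6:129275167-129275776), which lies over the right end of Cd69. There the relative level was 0.609 to 1.6 over the 18 libraries, with a median of 1.02, whereas R1 ran from 1.82 to 2.68 and R13 from 1.53 to 3.15.

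Between these ends, R10 (chr6:129273600-129274144) lies inside Cd69, 1.5 kb from its right end, and had a relative level of 1.2 to 1.7, with a median of 1.37. R3 (chr6:129210329-129210931) lies inside the long non-coding RNA gene Gm38906, for which no role is named here, and had 0.571 to 1.16. R7 (chr6:129237773-129238578) was the widest region, at 806 bp, and covers both starts of 2310001H17Rik, with a relative level of 0.909 to 1.5. Its summits fell into a left group of 14 peaks, between 121 bp left and 89 bp right of the inner start, and a right group of 5, between 198 bp left and 16 bp right of the outer start. In spleen high replicate 2 the caller split the region into a pair of peaks, 1 in each group. R7 therefore had a summit by either printed start, more often by the inner one.

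Reads were dense in the 10 kb around summits at 2310001H17Rik, Cd69 and both end regions. Such a window can hold the reads of the peak itself and of its neighbours, so density beyond the peaks was not measured. The local background that the caller used around R7 was 19.7 times the genome-wide background of the library at the median, around R5 17.8 times, around R10 11.7 times, around R13 10.4 times and around R1 9.84 times. The median over all peaks of the genome was 3.99 times. R3, R8 and R9 lay below that median, at 3.83, 1.82 and 2.94 times. A dense surrounding lowers fold enrichment: R7 had a fold of 4 to 6.77 at a relative level above that of R3, whose fold was 8.59 to 13.5.

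**Figure D2:**
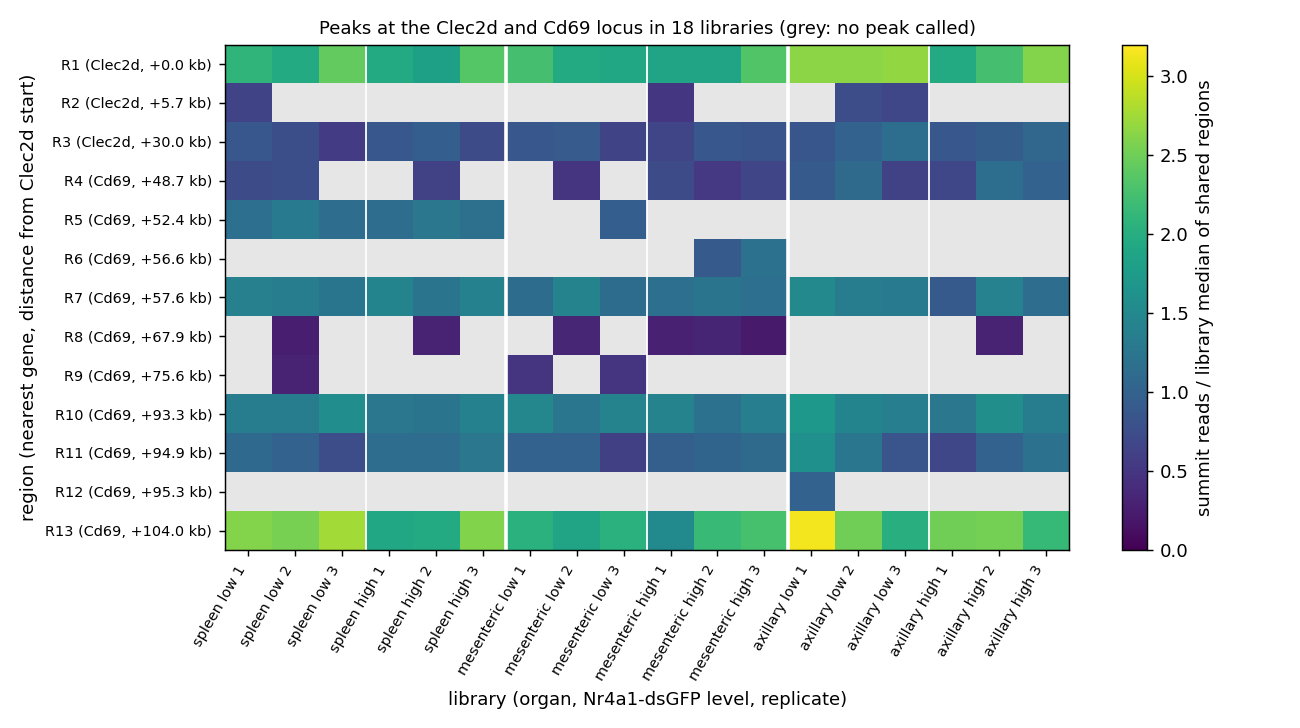
Relative level (colour, summit reads over the library median of shared regions) of the 13 regions (rows, with distance from the Clec2d start) in each of the 18 libraries (columns). R1 and R13 are the brightest rows, at 1.53 to 3.15, and the row of R5 is filled in the 6 spleen libraries and mesenteric low replicate 3 (grey: no peak called).

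The region that separated spleen from nodes was R5 (chr6:129232899-129233159), inside 2310001H17Rik and 34.3 kb from Cd69. A peak was called there in 6 of 6 spleen libraries, 1 of 6 mesenteric and 0 of 6 axillary libraries. The summits held 27, 29 and 24 reads in spleen low, 25, 28 and 26 in spleen high, and 22 in mesenteric low replicate 3. The spleen libraries were all above that single node library. In relative level the 7 peaks ran from 0.957 to 1.32, about that of the median shared region, and the median rank percentile of the peak within its list was 48.8. Its fold enrichment was 4.92 to 5.85 and its −log10 p 11.2 to 15.3, where 5.00 was the lowest value in the lists. Since the rule rested on this contrast, these values describe R5 and no test is given. Over the genome, 0.0695% of regions, 23 of 33115, had a peak in at least 5 of 6 spleen and at most 1 of 12 node libraries, and 1 of the 13 regions here did. The reverse pattern, at least 10 of 12 node and at most 1 of 6 spleen libraries, was met by 0.0876% of all regions and by 0 of these 13.

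The absence of a node peak at R5 limits its level there without giving it. At the local background seen around R5, a call at −log10 p of 5 needed 14 to 17 summit reads in mesenteric and 13 to 15 in axillary libraries. A level equal to the spleen median would have given 27.1 to 35.3 reads in mesenteric and 22.4 to 25.9 in axillary libraries. A node library without a peak therefore had less than 48.1% to 55.4% of the spleen median in mesenteric nodes, and less than 57.9% to 63.7% in axillary nodes, provided that its local background was the same and that width did not prevent the call. Neither condition is assured. At R7 the median local background was 18.3 times the genome-wide one in spleen, 20.8 in mesenteric and 21.0 in axillary libraries. Narrowest peaks of mesenteric libraries were 162 to 172 bp. The single mesenteric peak at R5 was 169 bp wide, where the narrowest of its library was 164 bp. Width can also matter in axillary libraries. In the 5 spleen libraries with short narrowest peaks R5 was 171 to 212 bp wide, less than the narrowest peak in 5 axillary libraries (216 to 236 bp). It was 236 bp wide in spleen low replicate 3, whose narrowest peak was 233 bp, and that library kept the call. Among the short libraries a peak was called in 5 of 5 spleen, 1 of 6 mesenteric and 0 of 1 axillary libraries, which leaves the axillary nodes almost without a comparison at like length. When all libraries were thinned to the depth of the shallowest, R5 kept 5 to 6 spleen, 1 mesenteric and 0 axillary libraries in 20 draws. Thinning tested only peaks already called, so it could not add a node peak.

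**Figure D3:**
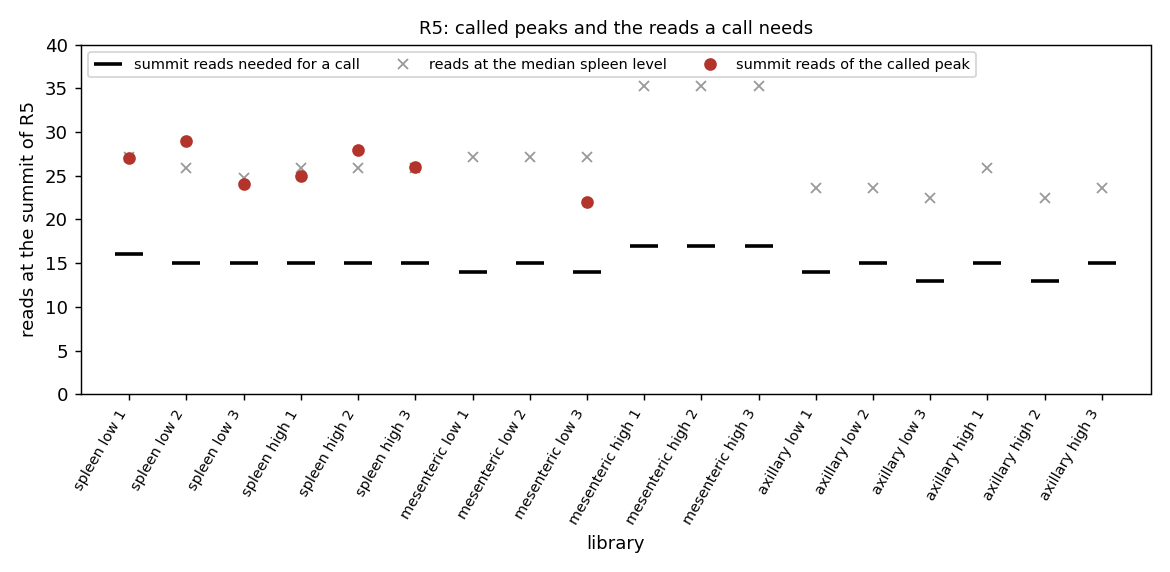
Reads at the summit of R5 (red points, 7 called peaks), the reads a call needed (black bars) and the reads that the median spleen level would give (grey crosses) in each of the 18 libraries. The 6 spleen peaks hold 24 to 29 reads against 15 to 16 needed by −log10 p alone, width aside. In 11 of 12 node libraries there is no peak.

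No other region of the locus followed the same pattern. R4 (chr6:129229008-129229537), 3361 bp to the left of R5, leaned the other way, with a peak in 3 spleen, 4 mesenteric and 6 axillary libraries. R6 (chr6:129237055-129237281), between R5 and R7, was called in 2 libraries, mesenteric high replicates 2 and 3, with 27 and 36 summit reads. R8 (chr6:129248268-129248687) was called in 2 spleen, 4 mesenteric and 1 axillary libraries on 6 to 10 reads. R9 (chr6:129256091-129256329) was called in 1 spleen and 2 mesenteric libraries on 7 to 11 reads. R2 (chr6:129186060-129186471), at the right end of Clec2d, had a peak in 4 libraries on 13 to 15 reads, and R12 (chr6:129275821-129276041), beside R11, in 1 axillary library. Depth bears on the weakest of these. At equal depth R8 kept a mean of 1 spleen, 2.6 mesenteric and 0.85 axillary libraries, and R4 kept 2.35, 2.95 and 6.

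At the 6 shared regions the relative levels of spleen and node libraries overlapped in 6 of 6 cases, while 0.16% of all shared regions had levels that did not overlap. The fitted spleen minus node difference ran from -0.17 (SE 0.13) at R3 to 0.13 (SE 0.10) at R7 on the log2 scale. Against mesenteric nodes alone it was 0.27 (SE 0.09) at R13, 1.20-fold, and between -0.02 and 0.17 at the other 5. Against axillary nodes alone it was -0.31 (SE 0.15) at R3, -0.23 (SE 0.09) at R1, and between -0.09 and 0.10 at the other 4. R7, the neighbour of R5 at 4613 bp, had 1.23 to 1.45 in spleen, with a median of 1.38, and 0.909 to 1.5 in nodes, with a median of 1.2. Spleen and node levels thus overlapped at the region over the starts of the same non-coding gene and at R10 and R11 on Cd69.

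Presence and level were then compared between the reporter fractions, a contrast that the choice of the locus did not use. R5 had a peak in 4 low and 3 high libraries (Fisher's exact test, two-sided, p = 1.0, adjusted p = 1.0). R8 had one in 5 high and 2 low libraries (exact p = 0.335, adjusted p = 1.0). These were the 2 members present in 6 to 12 libraries and so open to the test. None passed, and 0.0% of 5737 regions did genome-wide, 6.1% at an unadjusted p under 0.05, with a smallest adjusted p of 0.118. At R5 the result was nearly set by the choice of the locus, since its spleen peaks fall on 3 low and 3 high libraries. The test thus tells little about R5. R9 was called in 3 low and 0 high libraries and R6 in 0 low and 2 high ones, too few for a test.

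Of the 6 shared regions 0 changed between high and low in limma (Benjamini-Hochberg adjusted p over 8756 regions), beside 1.62% called genome-wide, and 0 of 6 had an unadjusted p under 0.05, beside 14.2%. The fitted high minus low difference ran from -0.13 log2 at R13 (SE 0.07, limma adjusted p = 0.414) to 0.09 at R11 (SE 0.12, limma adjusted p = 0.798). That at R13 was the largest in size. The 95% intervals ran from -0.28 to 0.01 at R13 and from -0.14 to 0.32 at R11. A change of up to 1.25-fold at R11, over the right end of Cd69, was thus within the error. At R10 the difference was -0.10 (95% interval -0.28 to 0.08), at R7 -0.10 (-0.29 to 0.09), at R1 -0.11 (-0.25 to 0.03) and at R3 0.04 (-0.20 to 0.28). High and low libraries overlapped at 6 of 6 regions, where 0.0799% of shared regions did not overlap.

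Within single organs, the high minus low difference varied most at R11, over the right end of Cd69. There the relative level was 1.09, 1.0 and 0.762 in spleen low and 1.14, 1.14 and 1.27 in spleen high. The high libraries of spleen were all above the low ones, as were 6.38% of shared regions in spleen. In mesenteric nodes R11 had 1.0, 1.0 and 0.609 in low and 0.967, 1.03 and 1.1 in high libraries, and in axillary nodes 1.6, 1.25 and 0.842 in low and 0.682, 1.0 and 1.2 in high libraries, with overlap in both. The high minus low difference at R11 was 0.33 (SE 0.20) in spleen, 0.28 (SE 0.20) in mesenteric and -0.35 (SE 0.20) in axillary nodes. The difference between the spleen and the axillary effect was 0.68 (SE 0.28), with an unadjusted p of 0.0191 and an adjusted p of 0.59 in limma. That is not called, and 0.0% of shared regions were called in that contrast.

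At R13 the relative level was 2.61, 2.55 and 2.76 in spleen low and 1.91, 1.95 and 2.59 in spleen high, a fitted difference of -0.31 (SE 0.13, limma adjusted p = 0.42). One high library, replicate 3, lay within the range of the low ones. At R1 the axillary low libraries held 2.65, 2.65 and 2.68 and the axillary high libraries 1.95, 2.26 and 2.6, so the high ones were all below the low ones, as were 6.89% of shared regions there. That difference, -0.24 (SE 0.12), was not called in limma (adjusted p = 0.518).

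**Figure D4:**
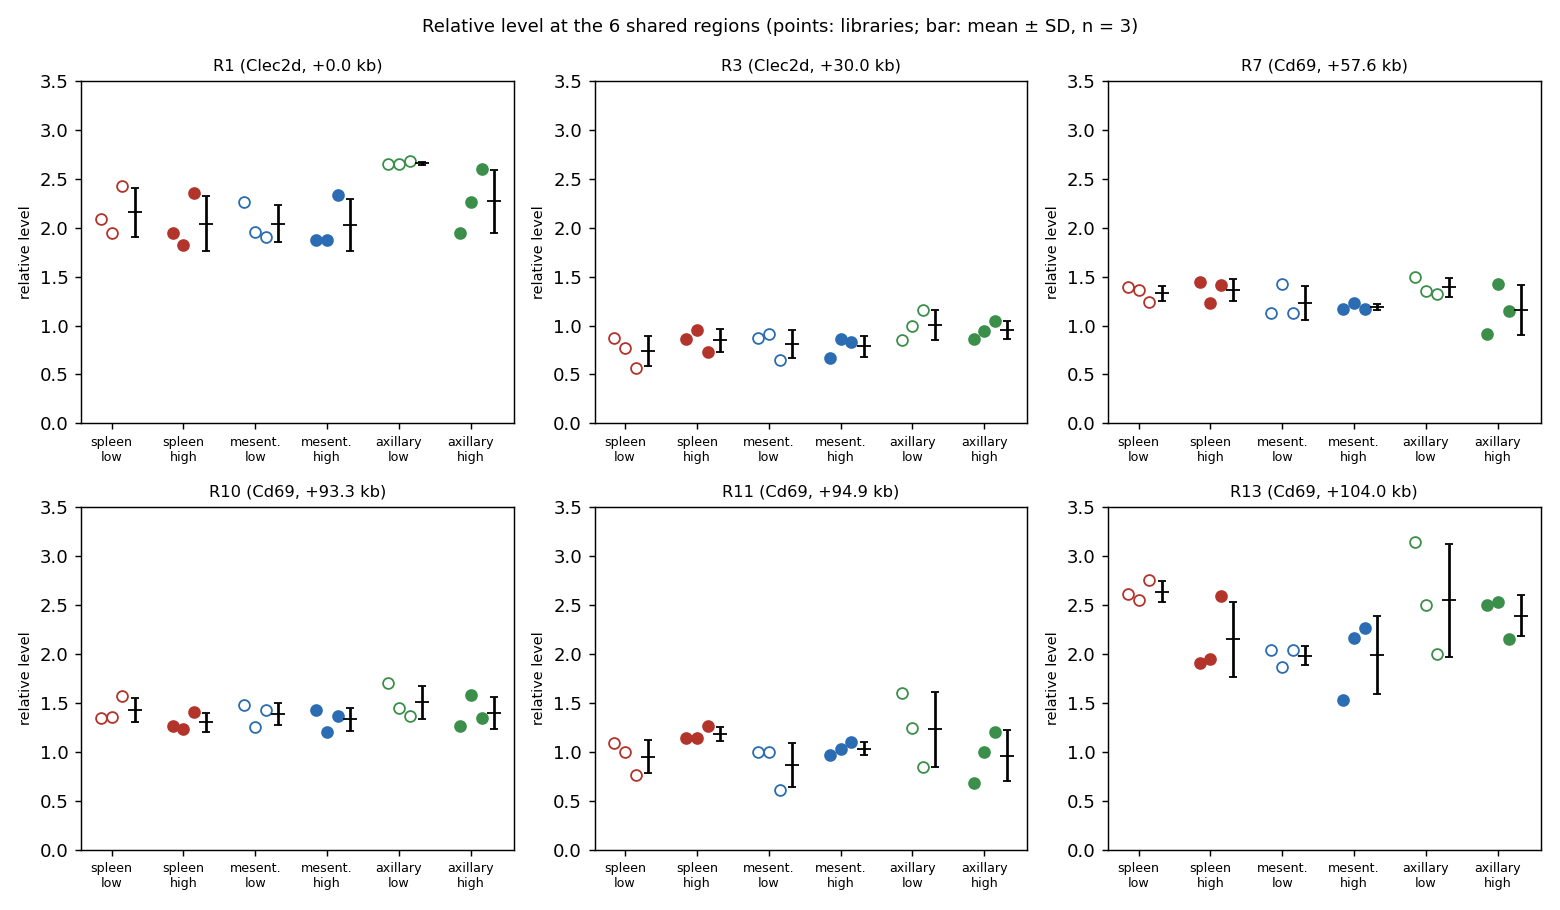
Relative level (vertical axis) of each library at the 6 shared regions by group, with open points for low and filled points for high fractions and a bar for the mean ± SD of 3 libraries. R11 in spleen is higher in the high fraction (1.14 to 1.27 against 0.762 to 1.09), and high and low libraries overlap at 6 of 6 regions when the 3 organs are pooled.

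Mesenteric and axillary nodes differed at both strong end regions. R13 had 1.53 to 2.27 in the 6 mesenteric libraries, with a median of 2.04, and 2 to 3.15 in the 6 axillary ones, with a median of 2.5. The fitted difference was -0.31 log2, 0.806-fold (SE 0.09, limma adjusted p = 0.0155). R1 had 1.87 to 2.33 in mesenteric libraries, with a median of 1.93, and 1.95 to 2.68 in axillary ones, with a median of 2.62. Its difference was -0.28, 0.826-fold (SE 0.09, limma adjusted p = 0.0284). The ranges overlapped in both, as they did at 6 of 6 regions (2.87% of shared regions did not overlap). These 2 of 6 regions were called beside 11.6% genome-wide, and beside 7.24% called lower in mesenteric nodes. The exact permutation test of each region alone, within reporter fractions, gave p = 0.045 for R13 and 0.03 for R1. R3 differed by -0.29 (SE 0.15) with an exact permutation p of 0.035 and a limma adjusted p of 0.193. R7, R10 and R11 differed by -0.06 to -0.17, with limma adjusted p from 0.472 to 0.801.

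The calls at R1 and R13 depended on how levels were scaled. Scaling by the genome-wide background instead moved the median of all shared regions from -0.01 to 0.20, gave -0.10 at R13 (limma adjusted p = 0.453) and -0.07 at R1 (adjusted p = 0.602), and called 2057 regions higher and 101 lower in mesenteric nodes in place of 381 and 634. On the deposited fold enrichment the differences were -0.03 and -0.11, with adjusted p of 0.894 and 0.384. Leaving out mesenteric high replicate 1 also ended both calls (-0.22 at R13, adjusted p = 0.129, and -0.25 at R1, adjusted p = 0.0845). Both fitted differences stayed below 0 in these 3 alternatives. In presence, R8 was open to the test, with 4 mesenteric and 1 axillary libraries (Fisher's exact p = 0.242, adjusted p = 0.485), and was not called. Genome-wide 0.0% of 3795 regions were called, 11.5% at an unadjusted p under 0.05, with a smallest adjusted p of 0.13.

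**Figure D5:**
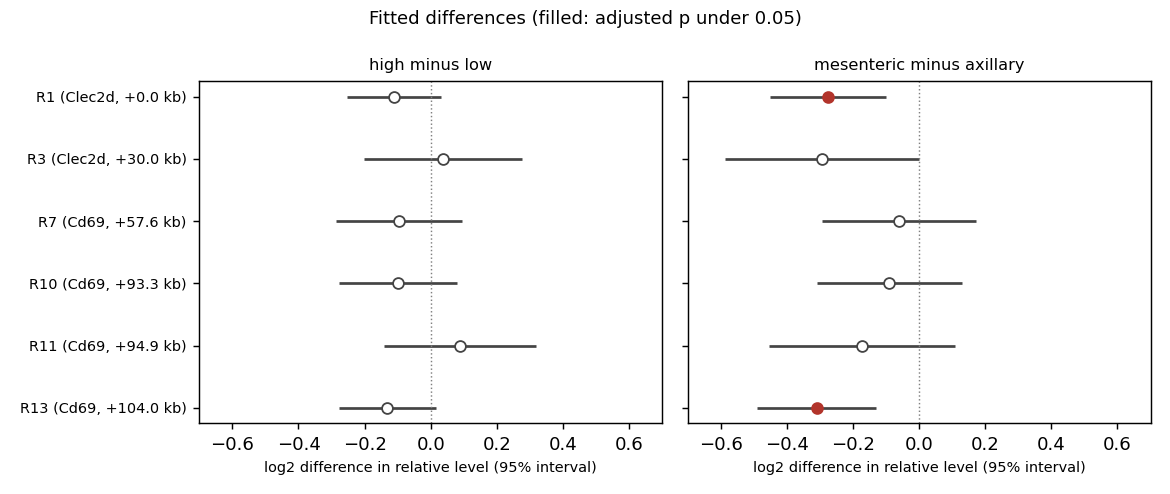
Fitted log2 differences in relative level (points) with 95% intervals (lines) at the 6 shared regions, for high minus low (left) and mesenteric minus axillary (right). The filled points are R1 (-0.28) and R13 (-0.31), both lower in mesenteric nodes, and all intervals for high minus low include 0.

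Regions elsewhere whose calls were most like those of R5 were sought by the number of libraries with the same presence or absence. Regions of Pttg1ip2 (chr5:5419915-5420436) and Cenpe (chr3:135191844-135192279), which encodes a kinetochore motor, matched in 17 of 18 libraries, each with a peak in 6 spleen and 0 node libraries. These were 2 of 3 such regions, and the other had no protein-coding gene end within 100 kb. Regions by Tnfaip2, AB124611, Pkib, Capn2 and Agpat4 matched in 16. In all 21 regions matched in at least 16 libraries, and 0 matched in all 18.

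Genes that work with CD69 were described from lists. Over all shared regions, limma called 0.765% higher and 0.857% lower in the high fraction, and 4.35% higher and 7.24% lower in mesenteric than in axillary nodes. The egress list held 13 genes around S1PR1 signalling and homing, such as S1pr1, its transcriptional activator Klf2 and the homing receptor Ccr7. It had 60 regions, 13 of them shared, and none of the 60 met the spleen pattern of R5. Between high and low, 1 shared region changed, at Sgpl1, the lyase that degrades sphingosine-1-phosphate (0.39 log2 higher in high, SE 0.10, limma adjusted p = 0.0192). It was no longer called when the peaks of a region were summed, on the deposited fold, or in the short libraries alone. Between the nodes, a region of the transcription factor Foxo1 was higher in mesenteric libraries (0.47, SE 0.15, adjusted p = 0.0292) and one of Ccr7 lower (-0.52, SE 0.15, adjusted p = 0.0139). Both calls were lost on the deposited fold and in the short libraries, and that at Ccr7 also for summed peaks and under the genome-wide scaling, which called 5 regions of the list higher and 0 lower. The median high minus low difference of the list was -0.06, beside -0.02 over all shared regions.

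The 27 other genes of the natural killer gene complex had 26 regions over 17 genes. Of their 4 shared regions, 0 changed in either contrast, and 0 of 26 had the spleen pattern. The list of 22 early activation genes had 129 regions, of which 30 were shared. The 4 that were higher in the high fraction were all regions of Nr4a1, the reporter's own gene, by 0.17 to 0.53 log2. On the deposited fold enrichment the same 4 were called lower, so their direction depends on the measure. In mesenteric against axillary nodes 8 regions of that list were lower and 1, at Fos, was higher. Of the lower ones 4 were at Nr4a1, and the others at Egr2, Jun, Nr4a3 and Tnfaip3. Under the genome-wide scaling 4 were lower and 4 higher. On the deposited fold 2 were lower, at Egr2 and Nr4a1, and 0 higher. The 13 tissue residency genes had 73 regions, 14 of them shared. In the high fraction 4 were higher, again at Nr4a1, and 1 was lower, at Prdm1, which encodes the repressor Blimp-1 (-0.35, SE 0.10, limma adjusted p = 0.041). Prdm1 was no longer called under the genome-wide scaling, for summed peaks, on the deposited fold or in the short libraries. In mesenteric nodes 7 were lower, 4 at Nr4a1 and 3 at Rgs1, a regulator of G protein signalling, and under the genome-wide scaling 5 were lower and 2 higher. None of the early activation or residency regions had the spleen pattern.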

How the data were processed

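ATAC-seq peak lists of 18 libraries were used. Reads were handled with Trimmomatic 0.33, Bowtie2, MACS and bedtools on mouse build mm10, per the submitters' processing notes. Caller settings and the other versions were not given in the sources used here. Peaks were deposited per library. Each deposited peak has a position and summit, a score that was not used further, a fold enrichment (a ratio), and −log10 p and q values, all as the authors deposited them, with 5.00 as the lowest −log10 p. The autosomes and X held 314425 of 314829 peaks, and these were merged into regions.

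Summit reads and local background were recovered from the deposited fold and −log10 p, since the caller's p is a Poisson tail. A single pair of values matched within 0.002 in 99.3% of peaks and in 146 of 146 peaks of the locus. Levels were log2 summit reads less the log2 library median. They were fitted over all 8756 shared regions with limma 3.58.1 (R 4.3.3; 6 group means, moderated with trend), and presence was tested with Fisher's exact test. Adjustment was Benjamini-Hochberg at 0.05 over all regions tested. Both steps were tested on simulated data. Genes came from the RefSeq table of GRCm38.p6 with 21627 protein-coding genes, whose strand was not used, so distances are to the nearer gene end.

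The members, lists and tests were chosen with earlier results of these data known. Every region of the locus was described, and the regions named as most like R5 were taken from the 8 with the most matching libraries among those with a protein-coding gene end within 100 kb (ties by nearest gene end), of which 1 is not reported here. Libraries of the same group differed by less than counting noise (chi-square per shared region 0.512 to 0.636 in 18 pairs). So did those of different groups (0.621 to 0.94 in 135 pairs). Each library was kept as a replicate. The cause of this small spread was not tested, and errors, intervals and p-values that rest on it may be too small.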

Additional observations from a re-analysis of the deposited data

How the results depend on the processing

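The locus was chosen by the contrast of spleen with nodes, so persistence of the R5 pattern is no independent support. The pattern was kept at equal list length, at a −log10 q of at least 5, at equal depth and at 50% coverage. Those settings can only drop called peaks, so they could not add a node peak and do not check its absence. The pattern was also kept in the short libraries, against mesenteric nodes alone, at a 50 kb gene limit and with each library left out. These latter settings could not have ended it, given 6 of 6 spleen libraries, 1 of 12 node libraries and a distance of 34.3 kb. In 25 of 25 alternatives, 1 region of the locus met the pattern. High against low called 0 levels in each of 26 alternatives (the filter on 20 summit reads fitted 5 of the 6 regions, without R3). It called 0 presences in each of 23. Mesenteric against axillary nodes called 0 presences in the 8 of 16 where a region of the locus was open to the test. No region of the genome was called in presence in any of these, so these presence counts tell little about the locus. The level count of high against low over all shared regions, 142, was 61 under the genome-wide scaling and 85 for summed peaks. It was 91 with at least 20 summit reads and 20 on the deposited fold. With 1 library left out it was 78 to 133 (83 without spleen low replicate 3, 94 without spleen high replicate 3 or mesenteric low replicate 3, 78 without mesenteric high replicate 2 and 87 without its replicate 1 or 3). The share of the 142 that was higher, 47.2%, became 65.6% of the calls under the genome-wide scaling and 30.8% with at least 20 summit reads. The small difference at R3 (0.04) was -0.0124 to 0.0906 with 1 library left out, below 0 without spleen low replicate 3 or mesenteric low replicate 3, and -0.0114 in the short libraries.

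For mesenteric against axillary nodes, the 2 called regions became 0 under the genome-wide scaling, on the deposited fold and in the short libraries alone (an added alternative with 1 axillary library, assumed to vary like the others, where the differences were -0.43 at R13 and -0.23 at R1), and 0 to 2 with 1 library left out. In limma R1 was lost without mesenteric low replicate 3 (adjusted p = 0.0598), mesenteric high replicate 1 (0.0845) or 2 (0.0827), or axillary high replicate 3 (0.0549), and R13 without mesenteric high replicate 1 (0.129) or axillary low replicate 1 (0.0877). The 1015 calls over all shared regions became 2158, 241 and 90 in those 3 settings, and 679 to 1111 with 1 library left out. The genome-wide scaling reversed R7 (0.1451), R10 (0.1153) and R11 (0.0318), the deposited fold reversed R10 (0.0738), and R7 was -0.1425 to 0.0019 with 1 library left out, above 0 without axillary high replicate 2. The cause of these changes was not tested.

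Replicate numbers did not pair the libraries: 0 of 45 same-numbered pairs had a correlation of deviations over 0.1 (-0.0271 to 0.0353). With a replicate block, 157 regions were called between high and low and 1029 between the nodes, R1 and R13 kept adjusted p of 0.0245 and 0.0148, and sign flips over pairs gave exact p of 1.0 for R5 and 0.25 for R8. Summit reads of 6 to 70 per peak limit the precision, and a region with no peak has no level. The intervals use a spread shared by the groups and moderated over all shared regions. They do not measure the spread of the 3 libraries of a group.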
